A study of Mus musculus with 32 samples.

Results

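The immediate-early and dissociation response genes are 10 mouse genes chosen by name: the AP-1 genes Fos, Fosb, Jun, Junb and Jund, the transcription factor genes Egr1 and Atf3, and Ier2, Dusp1 and Rhob. They were found by gene symbol in the deposited transcript tables, and the transcripts of a gene were summed. Of the 10, 9 were listed in at least 1 of 2 tables, against 13585 gene symbols in all: 8 in the table of female mice, which lists neither Fosb nor Jund, and 9 in the table of male mice, which does not list Fosb. Fosb was therefore not analysed here. The study sequenced RNA of microglia sorted from mouse spinal cord at day 14, in 15 female and 17 male libraries. "Repopulated" libraries came from mice labelled as depleted of microglia, whose microglia had grown back, and "resident" libraries from mice labelled as not depleted, each with and without a fracture.

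Without fracture there were 4 resident and 3 repopulated female libraries and 3 resident and 2 repopulated male ones. With fracture there were 4 and 4 female libraries and 5 and 7 male ones. Every library carries 1 genotype label, Cx3Cr1-Cre;Rosa26-iDTR. In this line Cre under the control of Cx3cr1, a gene of microglia and other myeloid cells, is switched on by tamoxifen and gives the cells a receptor for diphtheria toxin, which then kills them. The descriptions nevertheless call the non-depleted libraries wild type, and do not say whether those mice received tamoxifen or toxin, so an effect of regrowth cannot be told apart from one of genotype or of the toxin. Female and male libraries were made with different kits, so sex and kit cannot be told apart either, and each table is described by itself. Nothing in the labels states that the libraries of a group are from different animals. The p-values therefore rest on the spread between libraries alone, and part of that spread may be technical.

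Immediate-early genes are transcribed within minutes of a stimulus, without new protein synthesis, when MAP kinases or cyclic AMP signals activate factors that are already bound at their promoters. Fos proteins pair with Jun proteins to form AP-1, which binds DNA and drives a later set of genes. The products of Dusp1, a phosphatase that switches MAP kinases off, and of other feedback genes end the response. In microglia these genes are also known for rising while tissue is cut, digested with enzymes and sorted, so their level in a sorted sample can come from the animal, the preparation or both.

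The estimated counts of a library summed to 16438827 to 18654165 in females and 5722993 to 33697535 in males. All values below are CPM, the gene's counts as a share of the library's total, scaled to a fixed total and by TMM, a correction for differences in RNA composition. The tables list only transcripts with at least 10 counts in 8 or more of the female libraries or 9 or more of the male ones, so a gene seen in few libraries could not appear. All 8 microglia markers checked were listed in both tables, and their summed level was 39500 to 59200 CPM in every library. No T or NK cell marker was listed. Of 6 markers of macrophages at the borders of the nervous system 3 were listed (Mrc1, Pf4 and Ms4a7), at a summed level of 0.428 to 67.4 CPM. With fracture the female resident libraries had 0.836 to 3.9 CPM of these and the female repopulated ones 22.1 to 65.1. In the other comparisons of repopulated and resident libraries the ranges overlapped, with the highest values in repopulated ones. In bulk RNA, fewer cells of a type and less RNA per cell cannot be told apart.

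Promoter sequence was read for 3 members on which the results turn: Fos and Dusp1, which differed most in a single male library, and Rhob, the member lower in male repopulated microglia both with and without fracture. RefSeq promoters (GRCm38.p6) were found for 8 of the 10 genes, and Egr1 and Ier2 had none. Each sequence gives the 250 bases before the start, 5′ to 3′ on the gene's strand, and capitals mark letters that match a motif on either strand. The motifs searched were the cyclic AMP response element TGACGTCA, its part TGACG, which lies within it, the CCAAT box and the TATA box letters TATAAA, all on both strands.
Fos, chr12:85473640-85473889, plus strand: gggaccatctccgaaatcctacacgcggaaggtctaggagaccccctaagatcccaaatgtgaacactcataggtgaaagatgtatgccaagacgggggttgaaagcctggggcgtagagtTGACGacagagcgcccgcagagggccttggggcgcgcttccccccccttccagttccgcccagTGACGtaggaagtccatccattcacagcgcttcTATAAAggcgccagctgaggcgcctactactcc
Dusp1, chr17:26508473-26508722, minus strand: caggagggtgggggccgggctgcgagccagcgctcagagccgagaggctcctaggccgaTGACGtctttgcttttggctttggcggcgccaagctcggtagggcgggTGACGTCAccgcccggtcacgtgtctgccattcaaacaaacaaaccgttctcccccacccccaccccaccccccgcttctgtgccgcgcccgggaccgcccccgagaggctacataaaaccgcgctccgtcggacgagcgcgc
Rhob, chr12:8500010-8500259, minus strand: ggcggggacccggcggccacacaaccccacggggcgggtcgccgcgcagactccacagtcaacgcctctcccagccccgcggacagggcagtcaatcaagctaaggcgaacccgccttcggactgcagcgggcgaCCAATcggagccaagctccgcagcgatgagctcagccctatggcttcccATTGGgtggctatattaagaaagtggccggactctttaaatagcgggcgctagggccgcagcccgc
The Fos window holds TGACG 129 to 125 and 66 to 62 bases before the start and TATAAA at 33 to 28. The Dusp1 window holds a whole TGACGTCA at 143 to 136 and a further TGACG at 191 to 187. Rhob, a gene of 1 exon at chr12:8497661-8500009, has CCAAT at 115 to 111 and, reversed, at 66 to 62, and neither TGACG nor TATAAA. Of 32851 windows of this length, 1.55% held TGACGTCA, 17.8% TGACG, 33.8% CCAAT and 12.4% TATAAA. The Fos gene lies at chr12:85473890-85477273 and Dusp1 at chr17:26505590-26508519, both with 4 exons. Jun (chr4:95049034-95052222), Junb (chr8:84976910-84978718) and Jund (chr8:70698949-70700616) have 1 exon each, and Atf3 (chr1:191170296-191183340) has 4, in the GENCODE M21 annotation of GRCm38. The windows and the motif distances use the RefSeq start, which can differ from these gene coordinates. The Dusp1 window therefore overlaps the gene span given here.

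Levels of different genes were compared as CPM per kilobase of transcript, for the members with a transcript in the annotation, which leaves out Ier2. In the male table Junb, the AP-1 partner that often restrains Jun, had the highest median, 247 CPM per kilobase, and its lowest library lay above the highest library of every other member except Jun, at 263, and Egr1, at 232. Below it in order of the median came Rhob, a small GTPase of the actin skeleton (119), Jun, the main partner of Fos (64.2), Jund, the most steadily expressed Jun gene (47.8), Atf3, a stress-induced factor (16.1), Egr1, a zinc finger factor (9.06), Dusp1 (3.46) and Fos (1.25). Jund stands under more than 1 gene identifier with identical counts and was counted once. If its reads were shared between identifiers, its level here is too low, so its place after Jun is uncertain. In the female table the order of the 7 members with a length was Junb (90.8), Jun (31.3), Atf3 (15.1), Rhob (14.1), Egr1 (4.79), Dusp1 (2.52) and Fos (1.10). In each table the ranges over libraries of neighbours in that order overlapped, apart from Junb and the gene next to it. Fos RNA was scarce: it rested on 1 to 226 estimated counts in 16 male libraries and on 2 to 533 in the female ones.

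One male library stood apart in these genes before any comparison between groups. In replicate 1 of the male repopulated libraries with fracture, Fos was 324 CPM, while the other 6 libraries of that group had 1.08 to 20.8 CPM with a median of 3.02, a 107-fold difference from the median. Dusp1 was 158 CPM there against 2.46 to 9.29 in the other 6, 22.9-fold over their median. Egr1 was 739 CPM against 24.9 to 51.3, or 15.1-fold. Each of these values lies outside every other male library, and so do those of Jun, Ier2, Junb and Jund. Jun was 839 CPM against 144 to 225 (5.01-fold), and Ier2, an immediate-early nuclear protein gene, was 146 against 28.7 to 47.5 (3.70-fold). Junb was 964 CPM against 419 to 521 (2.00-fold), and Jund 123 against 53.2 to 77.4 (1.66-fold). Rhob was 283 CPM against 196 to 254 (1.3-fold), and Atf3 alone was not raised, at 28.7 against 28.3 to 62.1. Replicate 1 was thus the highest of 7 for 8 of 9 members, and more than 2-fold above the median of the others for 6, whereas it was the highest for 17% and more than 2-fold above for 4.48% of all 11999 genes.

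**Figure D1:**
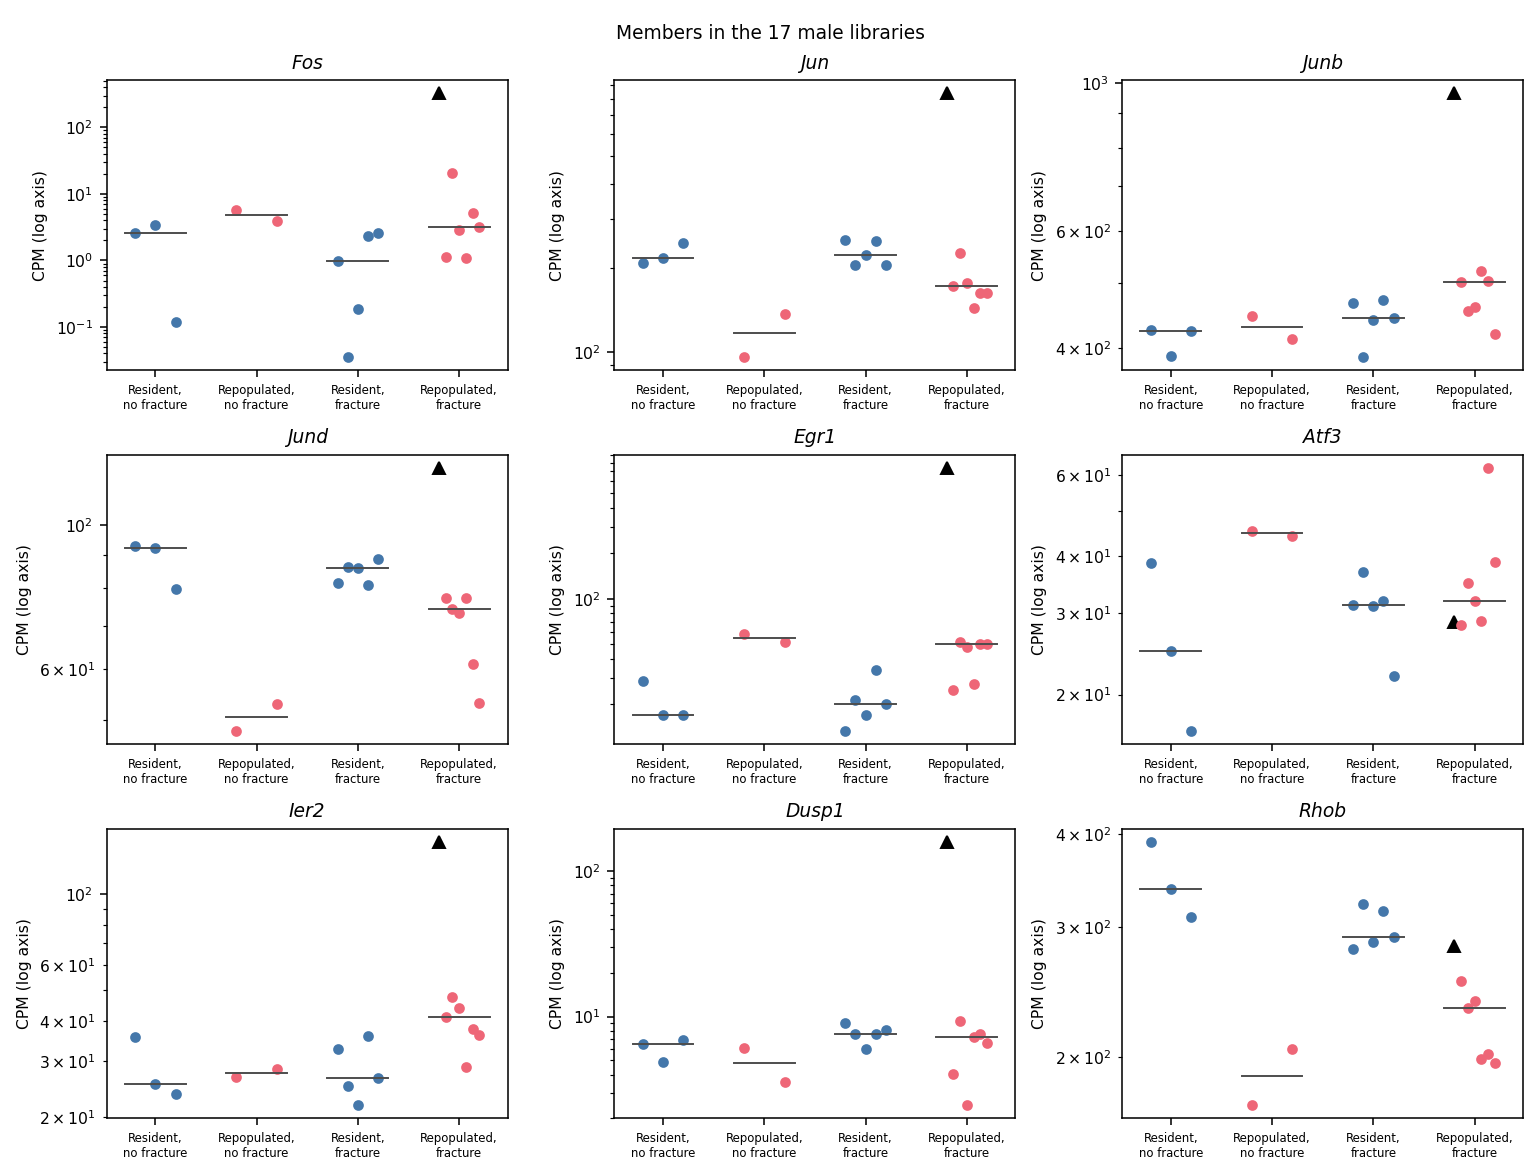
CPM of the 9 members listed in the male table, on log axes that do not start at 0, with 1 point per library and a line at each group's median; resident groups are blue and repopulated groups red. The black triangle is replicate 1 of the repopulated libraries with fracture, which is the highest point for 7 members and lies inside the range of all libraries for Atf3 and Rhob.

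The genes around the members did not all follow them in that library. Among 15 other immediate-early genes, 3 were highest in replicate 1, a share near the 17% of all genes. These were Btg2, which slows cell division, at 472 CPM against 166 to 195 in the other 6, Ier5 at 214 against 128 to 173, and Klf6. Egr2 and Nr4a1, usual companions of Egr1 and Fos, were 3.75 and 3.47 CPM, inside the spread of the others. Zfp36, whose protein destroys unstable mRNA and so limits the response, was 781 CPM against 218 to 309. Of 13 heat shock and chaperone genes 8 were highest there. The inducible Hsp70 genes Hspa1a and Hspa1b, near-identical copies whose reads cannot be split with certainty, were 68.1 and 57.4 CPM against 0.963 to 6.77 and 3.03 to 9.89. Of 13 further genes known to rise in microglia during warm dissociation, such as the cytokine genes Il1b and Ccl4, 3 were highest and 4 lowest in replicate 1. Of all 11999 genes 2040 were highest and 2162 lowest there. The median difference of these 13 genes was 0.16 on the log2 scale against 1.89 for the members. These genes were picked out for their values and carry no test. The library had 11003352 counts, a mitochondrial share of 0.486%, and counts for 11729 genes, the fewest of the male libraries. The part of any of these in the members' level was not tested. The members' male differences between repopulated and resident microglia are therefore given below with and without replicate 1. That library was singled out by its values for most of these members, and leaving it out narrows their spread. The p-values without it are therefore given as a description and are no test of the members.

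**Figure D2:**
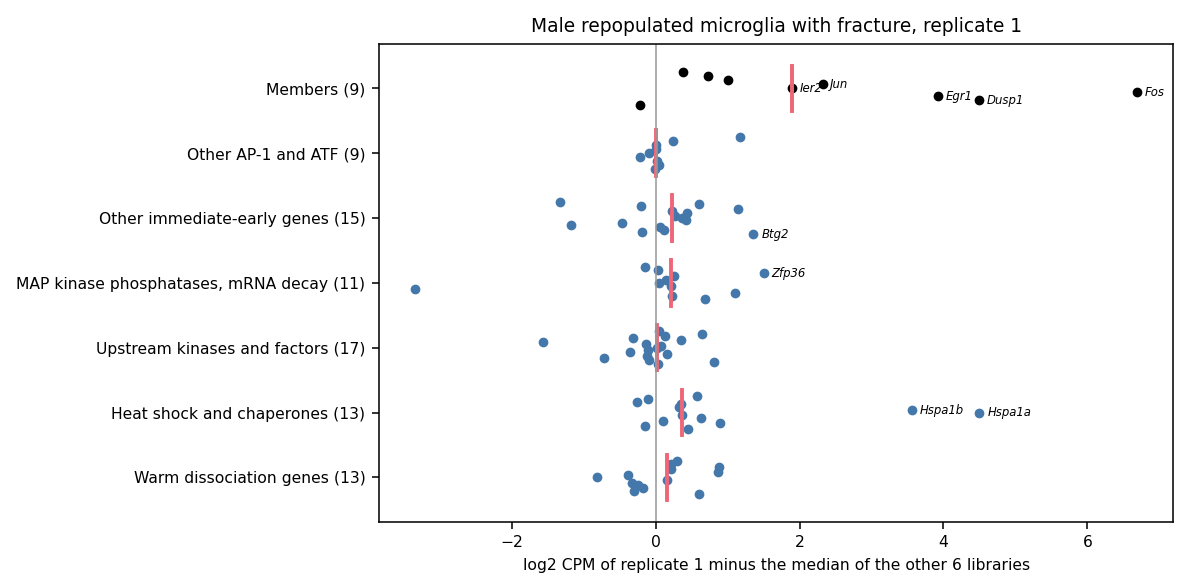
Difference in log2 CPM between replicate 1 of the male repopulated libraries with fracture and the median of the other 6, with 1 point per gene, genes grouped by list (number listed in brackets) and a red bar at each list's median. The members' bar stands at 1.89 and that of the warm dissociation genes at 0.16; names mark the genes with the largest differences, and Hspa1a (4.5) lies beside Dusp1 (4.49).

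In male mice without fracture, Rhob and Jund were lower in repopulated than in resident microglia. Rhob was 391, 338 and 309 CPM in the 3 resident libraries and 172 and 205 in the 2 repopulated ones. The groups did not overlap, and the difference was −0.87 ± 0.14 on the log2 scale (SE; edgeR's quasi-likelihood test, Benjamini-Hochberg adjusted p = 0.000593). Jund was 93.1, 92.2 and 79.8 CPM against 48.1 and 52.9, again without overlap, a difference of −0.81 ± 0.23 (edgeR adjusted p = 0.0316). Without replicate 1 of the repopulated libraries with fracture these were −0.87 ± 0.13 and −0.81 ± 0.16 (edgeR adjusted p = 0.000178 and 0.00214). These 2 of 9 members were called lower (adjusted p under 0.05) and none higher, while 7.42% of all genes were called in either direction and 2.72% lower. The split of all calls depended on scaling: 564 genes were higher and 326 lower with TMM, but 442 higher and 501 lower when only library totals were used. The Jund call was lost (adjusted p 0.0818 to 0.182) when replicate 1 or 2 of the resident or of the repopulated libraries without fracture was left out; the Rhob call held without any 1 of the 17 libraries. The table gives Jund under 2 gene identifiers with the same counts in all 17 libraries, and it was counted once. If reads were shared between the 2, the CPM of Jund given here are too low, which was not tested.

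Jun and Egr1 also had groups that did not overlap, in opposite directions. Jun was 209, 217 and 246 CPM in resident and 96.2 and 137 in repopulated microglia without fracture, a difference of −0.94 ± 0.66 (edgeR adjusted p = 0.520). Egr1 was 28.5, 17 and 16.9 CPM against 58.1 and 51.6, a difference of 1.38 ± 1.28 (adjusted p = 0.658). Neither passed in the model of all 17 libraries, where the fracture group shares its estimate of spread with the others. Without replicate 1 of the repopulated libraries with fracture the differences were −0.94 ± 0.17 for Jun (edgeR adjusted p = 0.00100) and 1.39 ± 0.35 for Egr1 (adjusted p = 0.0154), and 4 members were called, with 7.91% of all genes. The same 4 were called by DESeq2, beside 9.63% of all genes, and when only the 2 groups were fitted, beside 5.48%. Fos (2.63, 3.36 and 0.119 CPM against 5.80 and 3.91) and Atf3 (38.7, 24.9 and 16.7 against 45.4 and 44.3) did not overlap either, with differences of 1.44 ± 2.44 and 0.74 ± 0.32 and edgeR adjusted p of 0.843 and 0.205. Without replicate 1 these were 1.3 ± 1.338 and 0.74 ± 0.32 (adjusted p = 0.688 and 0.198). With 3 libraries against 2, groups of 35.4% of all genes did not overlap, so 6 of 9 members without overlap stand beside a large share of all genes. Junb, Ier2 and Dusp1 overlapped, with differences of 0.06 ± 0.25, −0.04 ± 0.51 and −0.36 ± 1.5, and of 0.06 ± 0.10, −0.04 ± 0.24 and −0.35 ± 0.48 without replicate 1.

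Marker levels differed between the same libraries. The endothelial list, of which only Pecam1 was listed and Cldn5, Flt1 and Ly6c1 were not, was at 17.3 to 28.2 CPM in resident and 0.545 to 2.13 in repopulated male libraries without fracture. The summed microglia markers were 53800 to 56500 against 47100 to 47900 CPM. The 2 listed of 5 monocyte markers, Plac8 and Itgal, summed to 1.5 to 11.7 against 30.7 to 32.2, with Ly6c2 and Ccr2 among those not listed, and the 3 listed of 5 B cell markers to 471 to 543 against 312 to 340, with Cd79a and Ms4a1 not listed. Csf3r, the 1 listed of 4 neutrophil markers, was 346 to 427 against 540 to 590, with S100a8, S100a9 and Retnlg not listed. Their part in the members' differences was not tested.

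With fracture, Rhob was again lower in male repopulated microglia. The 5 resident libraries had 280, 322, 286, 315 and 291 CPM, and the 7 repopulated ones ranged from 196 to 283 with a median of 233, so the groups touched only through replicate 1. The difference was −0.38 ± 0.09 (edgeR adjusted p = 0.0136), and −0.44 ± 0.08 without replicate 1 (adjusted p = 0.00239). Rhob was the only member of 9 called, beside 4.91% of all genes called, 3.03% higher and 1.88% lower. These were 364 higher and 225 lower genes, and 303 and 338 with library totals. The call was lost without resident replicate 2 or 4 (adjusted p = 0.0503 and 0.0501). The titles of the male libraries carry numbers with the letter V, in the ranges 64 to 79 and 99 to 110, whose meaning the labels do not give. Within the lower range, with 3 libraries a group, the difference was −0.20 ± 0.11 (edgeR adjusted p = 0.540), and within the higher range, with 2 resident and 4 repopulated libraries, it was −0.53 ± 0.11 (adjusted p = 0.0768). Of all genes only 0.667% were called within the lower range and 0.36% within the higher one. Fitting the range as a term gave −0.36 ± 0.09 (adjusted p = 0.0168).

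With all libraries, the male differences of Fos and Egr1 with fracture were large and did not pass, and both were smaller without replicate 1. Fos was 0.993, 0.0357, 0.183, 2.37 and 2.54 CPM in resident microglia and 324, 1.14, 20.8, 2.87, 1.08, 5.24 and 3.17 in repopulated ones, a difference of 5.58 ± 1.82 with all libraries (edgeR adjusted p = 0.1095) and 2.26 ± 0.96 without replicate 1 (adjusted p = 0.218). The groups overlapped in both cases. Egr1 was 13.3, 21.2, 16.9, 33.6 and 20.1 CPM against 739, 24.9, 51.3, 47.9, 27.4, 49.8 and 50.4. It differed by 2.75 ± 0.91 with all libraries (adjusted p = 0.115), and by 1.00 ± 0.24 without replicate 1, which passed (edgeR adjusted p = 0.0141). The fit without replicate 1 was chosen after these values were seen. In 5 of the 7 repopulated libraries Egr1 was above every resident one.

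Jun turned its direction with that library. It was 252, 205, 222, 250 and 204 CPM in resident and 839, 173, 225, 176, 144, 163 and 162 in repopulated microglia with fracture. With all libraries the difference was 0.25 ± 0.41 (edgeR adjusted p = 0.860). Without replicate 1 it was −0.38 ± 0.11 (adjusted p = 0.0390), the same direction as without fracture. Jund differed by −0.14 ± 0.14 with all libraries and by −0.29 ± 0.10 without replicate 1 (edgeR adjusted p = 0.745 and 0.113). Without replicate 1, Egr1, Jun and Rhob were called, with 5.97% of all genes, and the groups of Jund and Rhob did not overlap, as for 5.19% of all genes; with all libraries no member's groups were separate, against 3.58% of all genes. Ier2 was 0.94 ± 0.33 and 0.47 ± 0.16 higher with and without replicate 1 (adjusted p = 0.131 and 0.101). Dusp1 turned from 1.87 ± 0.96 to −0.31 ± 0.31, neither of which passed. Junb differed by 0.30 ± 0.16 and 0.11 ± 0.07 and Atf3 by 0.24 ± 0.21 and 0.29 ± 0.22, with and without it (edgeR adjusted p = 0.385, 0.483, 0.677 and 0.584). DESeq2, which by default replaces single extreme counts in a group of 7, called Egr1, Jun and Rhob with all libraries kept, beside 6.91% of all genes.

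**Figure D3:**
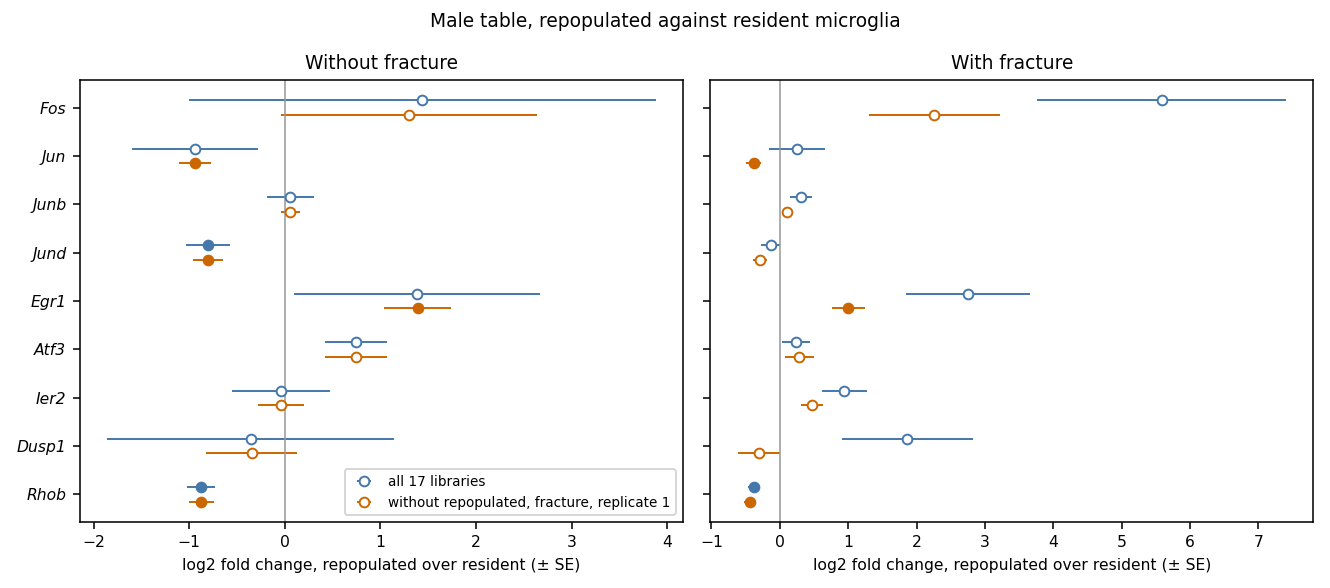
Log2 fold change of repopulated over resident male microglia for each listed member, without fracture (left) and with fracture (right), as points with bars of 1 SE; blue is the fit of all 17 libraries and orange the fit without replicate 1 of the repopulated libraries with fracture, and filled points have an edgeR adjusted p under 0.05. Rhob is filled in all 4 fits, while Jun and Egr1 are filled only without that library, with Jun crossing from 0.25 to −0.38 with fracture. That library was left out after its values for these genes were seen.

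No member passed edgeR's test for fracture in males. Of all genes 1 (0.00833%) was called for fracture among the resident libraries, 1 (0.00833%) among the repopulated ones and 1 (0.00833%) for the interaction, and none was a member. At an unadjusted p under 0.05, 0 of 9 members passed in resident microglia, where 4.26% of all genes did. In repopulated microglia 2 of 9 passed, beside 8.29% of all genes, and 2 of 9 for the interaction, beside 7.38%. Without replicate 1 no member was called for fracture either, beside 0.00833% of all genes in resident microglia, 0.0167% in repopulated microglia and 0.0167% for the interaction. Jun, Jund and Ier2 had higher, non-overlapping levels in the 7 repopulated libraries with fracture than in the 2 without, as 7.08% of all genes had separate groups in 1 direction or the other. Jun differed by 1.21 ± 0.61 with all libraries and 0.58 ± 0.15 without replicate 1 (edgeR adjusted p = 0.660 and 0.364), and Jund by 0.61 ± 0.20 and 0.46 ± 0.14 (adjusted p = 0.415 and 0.434). DESeq2 called Jun in this comparison (0.59 ± 0.15, adjusted p = 0.0369, beside 0.325% of all genes). In resident microglia no member's groups were separate (4.53% of all genes), and the differences ran from −0.21 for Rhob to 0.31 for Dusp1 on the log2 scale, apart from −0.75 ± 2.18 for Fos. For Rhob the repopulation difference was 0.49 ± 0.17 less negative with fracture than without (edgeR adjusted p of the interaction 0.496), and 0.44 ± 0.15 without replicate 1 (adjusted p = 0.512). Both male fracture comparisons use unfractured libraries of the lower V range only, while 2 of the 5 resident and 4 of the 7 repopulated fracture libraries come from the higher range.

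Some of the other genes known to rise during warm dissociation of microglia were higher in male repopulated cells. Without fracture 6 of 13 rose and none fell, beside 4.7% of all genes that rose, with a list median of 0.81 on the log2 scale against −0.03 for all genes. Cd83, a surface protein of activated myeloid cells, rose from a mean of 466.1 ± 56.1 CPM in the 3 resident libraries to 1095 ± 151 CPM in the 2 repopulated ones (± SD; 1.23 ± 0.19 on the log2 scale, edgeR adjusted p = 0.00038). The adhesion molecule gene Icam1, the cytokine gene Il1b and the chemokine gene Ccl3 rose by 0.81 ± 0.14, 1.96 ± 0.47 and 1.52 ± 0.41. With fracture 5 of 13 rose and none fell, beside 3.03% of all genes that rose, with a median of 0.41 against −0.00 for all genes. These were Cd83 (0.79 ± 0.13), the NF-kB inhibitor genes Nfkbiz (1.10 ± 0.21) and Nfkbia (0.41 ± 0.10), Ccl3 (1.17 ± 0.27) and Icam1. Without replicate 1 of the fracture group the counts were 7 of 13 and 6 of 13, beside 4.91% and 3.58% of all genes called higher. Members and these genes thus did not move as 1 group: Jund and Rhob fell where Cd83 and Ccl3 rose.

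Some genes of MAP kinase and mRNA decay feedback were lower in the same male comparisons. Of 11 listed genes 3 fell without fracture and none rose, beside 2.72% of all genes that fell, with a list median of −0.29 against −0.03 for all genes. With fracture 4 fell and none rose, beside 1.88% of all genes that fell, with a median of −0.22 against −0.00. Dusp2, a phosphatase of activated immune cells, differed by 2.27 ± 0.88 and 0.77 ± 0.57 on the log2 scale and did not pass (edgeR adjusted p = 0.143 and 0.597). Dusp7, a phosphatase of ERK kinases, fell from 378 ± 61.8 to 184 ± 3.28 CPM without fracture (n = 3 and 2; −1.04 ± 0.12, edgeR adjusted p = 2.69e-05). With fracture it went from 396 ± 16.8 to 278 ± 25.2 CPM (n = 5 and 7; −0.51 ± 0.08, adjusted p = 0.000429). Dusp6, another ERK phosphatase, fell by 0.81 ± 0.12 and 0.29 ± 0.08 on the log2 scale, and Zfp36l2, an mRNA decay factor, by 0.37 ± 0.09 and 0.27 ± 0.06. Spred1, an inhibitor of Ras signalling, fell by 0.42 ± 0.09 with fracture. The same 3 and 4 genes were called without replicate 1, beside 3.0% and 2.39% of all genes called lower. Of 17 upstream kinases and factors only Mapkapk2, a kinase that stabilises inflammatory mRNA (0.57 ± 0.16), and Rps6ka1, a kinase downstream of ERK (−0.32 ± 0.09), were called, both without fracture, where 7.42% of all genes were. None of 9 other AP-1 and ATF genes, 15 other immediate-early genes or 13 chaperone genes was called in either state. Without replicate 1, Btg2 was called lower in both states and the chaperone gene Dnajb1 lower with fracture. Replicate 1 was the highest library of its group for both genes. Btg2 was 472 CPM there against 166 to 195 in the rest of the group, and Dnajb1 183 against 79.8 to 111. These calls without it are therefore a description and no test. None of these lists had a called gene in the male fracture comparisons.

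In the female table no member was called in any comparison. Beside 0 of 8 members, 2.53% of all genes were called between repopulated and resident microglia without fracture and 2.35% with fracture, and 0.0% in both fracture comparisons and the interaction. The 338 and 315 called genes split into 209 higher and 129 lower and into 170 and 145, and with library totals into 116 and 228 and into 110 and 276. At an unadjusted p under 0.05, 2 of 8 members passed without fracture, Junb and Ier2, both lower in repopulated cells, beside 15.3% of all genes. With fracture 0 of 8 passed at that level, beside 13.7% of all genes. For fracture 2 of 8 passed in resident microglia, beside 4.93% of all genes, 2 of 8 in repopulated microglia, beside 10.5%, and 0 for the interaction, beside 3.69%. DESeq2 called 0 members as well, while it called 5.05% of all genes for repopulation without fracture and 5.08% with fracture, 0.0299% and 0.665% for fracture in resident and repopulated microglia, and 0.00748% for the interaction. Leaving out each of the 15 female libraries in turn called no member. Those fits called 0.381% to 4.58% of all genes for repopulation, and at most 0.00748% for fracture or the interaction.

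Junb and Ier2 show how close the female groups lay. Junb was 235, 195, 204 and 172 CPM in resident and 149, 148 and 183 in repopulated microglia without fracture, a difference of −0.33 ± 0.13 (edgeR adjusted p = 0.228). Ier2 was 60.2, 25.8, 24.0 and 16.5 CPM against 15.9, 12.6 and 22.3, or −0.90 ± 0.40 (adjusted p = 0.290). The highest repopulated library lay above the lowest resident one for both genes, and no member had separate groups, against 13.3% of all genes. Fos was 31.1, 5.51, 8.42 and 0.106 CPM against 2.48, 1.63 and 1.57, with resident libraries spread on both sides of the repopulated ones, and differed by −2.57 ± 1.22 (edgeR adjusted p = 0.343). Atf3 was 47.9, 18.7, 47.9 and 31.6 against 60.7, 34.6 and 48.9 (0.40 ± 0.28).

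With fracture, female Jun was lower and Dusp1 higher in repopulated microglia without overlap, 2 of 8 members against 11.9% of all genes. Jun was 138, 118, 144 and 148 CPM in resident and 100, 98.4, 88.9 and 99.9 in repopulated libraries. In the model of all 15 libraries this difference was −0.50 ± 0.63 (edgeR adjusted p = 0.855), where the spread includes the unfractured libraries, in which Jun ranged from 7.44 to 144 CPM. Fitted on the 8 libraries with fracture alone it was −0.51 ± 0.09 (edgeR adjusted p = 0.00623, beside 4.75% of all genes). Dusp1 was 4.85, 5.57, 5.02 and 2.26 CPM against 13.5, 7.91, 5.97 and 6.06, and differed by 0.92 ± 1.31 (adjusted p = 0.882). Junb, Egr1, Fos, Ier2, Atf3 and Rhob differed by −0.34 to 0.07 on the log2 scale.

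Female Jun, Dusp1, Egr1 and Rhob were low in some of the unfractured libraries and not in others of the same group. Jun was 24.0, 46.6, 144 and 137 CPM in the 4 resident and 7.44, 43.8 and 89.9 in the 3 repopulated ones. Dusp1 had no counts in resident replicates 1 and 2 and repopulated replicate 1, where 3 counts would have given 0.170 to 0.186 CPM, 1.16 and 6.18 in the other resident libraries, and 0.225 and 6.10 in the other repopulated ones. Egr1 was 8.75, 8.46, 32.6 and 18.5 against 1.80, 2.14 and 26.8. Replicates 1 and 2 of both groups were thus the lowest for these 3 genes. Rhob was 14.4, 21.3, 16.0 and 127 CPM in resident and 13.9, 19.96 and 20.4 in repopulated libraries, so only resident replicate 4 was high. With fracture Rhob was 168, 97.8, 35.5 and 19.9 in resident and 113, 77.1, 82.7 and 33.0 in repopulated microglia.

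Against that spread, the female fracture differences did not pass. In repopulated microglia Rhob was higher and Atf3 lower with fracture without overlap, 2 of 8 members against 13.0% of all genes, with differences of 2.08 ± 0.92 and −0.80 ± 0.28 (edgeR adjusted p = 0.455 and 0.386). In resident microglia no member's groups were separate, against 3.09% of all genes. Ier2 and Junb there differed by −0.85 ± 0.36 and −0.28 ± 0.12, both with edgeR adjusted p = 0.940. Of the lists, only Nfkbia of the warm dissociation genes was called in females, higher in repopulated cells without fracture as 1.56% of all genes were (244 ± 30.9 against 161 ± 19.9 CPM, n = 3 and 4; 0.60 ± 0.14, edgeR adjusted p = 0.035). The list's medians were 0.27 and 0.24 without and with fracture, against −0.02 and −0.00 for all genes.

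How far the male members varied together depended on 1 library. Likeness was measured as Pearson's r of log2 CPM after removing each group's mean, as a description over libraries that share depth and preparation. Over the 17 male libraries 29 of 36 pairs of members were positive, with a median r of 0.73, and Jun and Ier2 were the closest pair at 0.92. Without replicate 1 of the repopulated libraries with fracture the median was 0.12, with 25 of 36 positive, so the male likeness rested mostly on that library. Fos and Ier2 (0.63), Jund and Rhob (0.60) and Fos and Egr1 (0.52) were among the 7 pairs above 0.5 that then stood. Over the 15 female libraries 15 of 28 pairs were positive with a median of 0.05. There Fos, Junb and Ier2 formed 1 set (0.72 to 0.79) and Jun, Egr1 and Dusp1 another (0.61 to 0.85), while Fos and Rhob ran opposite (−0.85).

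**Figure D4:**
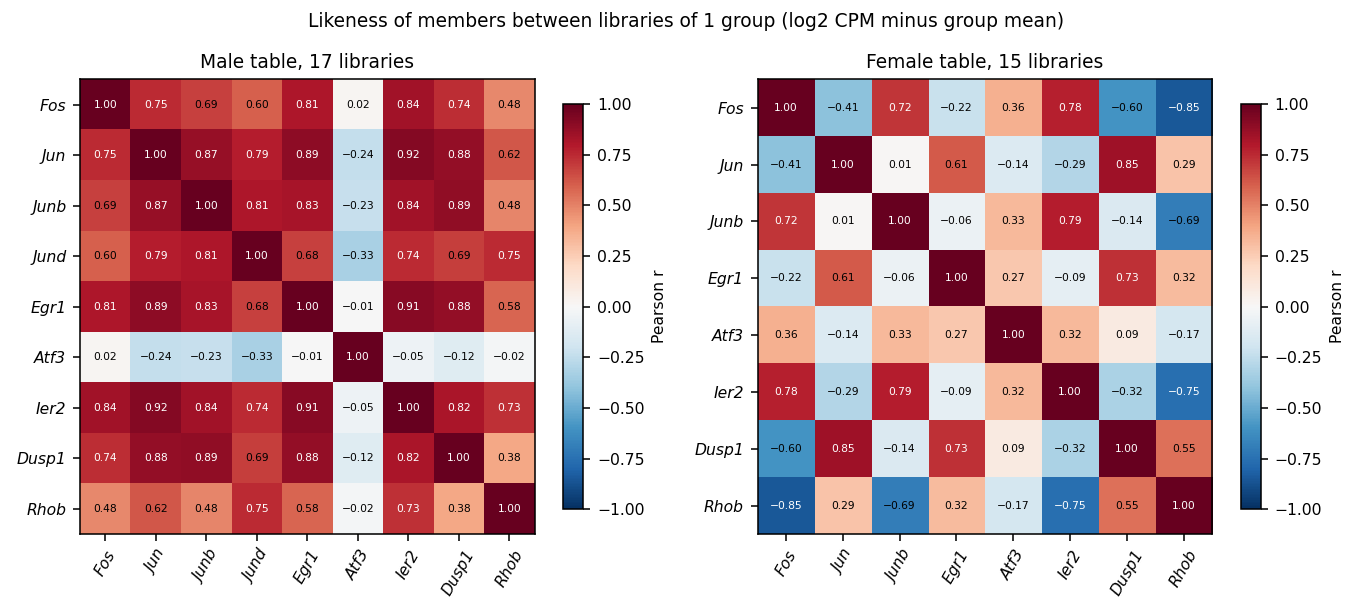
Pearson's r between members over the 17 male (left) and 15 female (right) libraries after each group's mean of log2 CPM was removed; red cells are positive and blue cells negative. Male Atf3 has r from −0.33 to 0.02 with the other members, and in females Rhob is at −0.69 to −0.85 with Fos, Junb and Ier2.

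The genes nearest to the mean of the members in the male libraries were Btg2 (r = 0.88), the histone gene H3f3b (0.87), Rnf166 (0.85), Zfp36 (0.84) and the histone gene H2ac8 (0.83). Without replicate 1 they were Rsl1 (0.83), 9430015G10Rik, Mad2l2, Ube2j2 and Guf1. Nearest to Fos were Fbxo11 (0.82), Ppp1r15a, a stress-response phosphatase subunit (0.82), Abhd10, Pcdhga7 and Tspyl2 over all male libraries, and Themis2 (0.93), Pmm2, Irgm1, Tmem179b and Bod1 in females. The female mean of members was nearest to Atrn (0.90), Ndst1, Plk1, Crybg1 and Ttl. In females, 178 other genes had an r above 0.9 with Jun, 147 with Dusp1 and 107 with Rhob, whereas the other 5 members had 1 or 2 each. The median gene there had 1 such partner, and 3.51% of genes had 100 or more. No male member had more than 3.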

How the data were processed

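The authors deposited estimated counts per transcript in whole numbers, with a table for females and another for males. The tools, per the submitters' processing notes, were cutadapt 3.4, Trim Galore 0.6.7, STAR 2.7.6a, RSEM 1.3.1 and DESeq2 1.34.0, with the build GRCm38. The annotation and what each tool did: not given in the sources used here. RSEM shares reads that fit several transcripts between them, so counts of near-identical genes are uncertain. The deposited table also gives a score per row, its mean absolute deviation, which was not used.

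Transcripts were summed by gene identifier. For each table, 1 model held all 4 groups, fitted in edgeR 4.0.16 (TMM, filterByExpr, robust quasi-likelihood F test) in R 4.3.3, tested on simulated data. Benjamini-Hochberg adjustment ran over all genes within each comparison, and an adjusted p below 0.05 was called. The SE beside an edgeR difference is approximate: the size of the difference divided by the square root of the test's F value. The SE beside a DESeq2 difference is the one DESeq2 reports. Alternatives were DESeq2 1.42.0, library totals only, other filters, the sample number as a block, only the compared groups, ranges of V numbers, and leaving out each library. The members and lists were chosen with earlier results of these data known. All listed members are named; of other genes, the 5 most alike to the members' mean or to Fos, up to 4 called genes per list, and genes of the lists in the library that stood apart, which were chosen after their values were seen. Intervals of a count of 0 cover counting error only.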

Additional observations from a re-analysis of the deposited data

Results flagged for a closer look

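Of 42 combinations of a member and a group of 4 to 7 libraries, 9 held a library far from the rest of its group. Chance alone marks about 1 in 20 if values are normally spread, which was not checked for these CPM. All 9 were the highest of their group. Of the 9, 7 were replicate 1 of the male repopulated libraries with fracture, which was highest for Fos (324 CPM), Jun (839), Junb (964), Jund (123), Egr1 (739), Ier2 (146) and Dusp1 (158). These 7 flags come from 1 library and are not independent of each other. In the same group, Atf3 was highest in replicate 6, at 62.1 CPM against 28.3 to 38.8 in the other 6. Among the female resident libraries without fracture, Rhob was 127 CPM in replicate 4 and 14.4 to 21.3 in the other 3.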

How the results depend on the processing

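Of 69 counts of called members under other settings (single libraries left out aside), 61 equalled the reported one. The setting with no filter tested the same 13377 female and 11999 male genes as the reported fit, so it could not differ. In the fracture and interaction comparisons the reported fit called 0 or 1 of all genes, so equal counts of 0 there show little. In males without fracture the count of 2 became 4 with DESeq2 and with only the compared groups, and 1 to 4 when single libraries were left out. With fracture the count of 1 became 3 with DESeq2, and 0 with the replicate block, within V 64 to 79 and within V 99 to 110, a range added after seeing the data. Of all genes, the block called 2.44%, V 64 to 79 called 0.667% and V 99 to 110 called 0.36%, against 4.91% in the reported fit. A count of 0 members there shows little. The count was 0 to 3 when single libraries were left out. Between fracture and no fracture in male repopulated microglia DESeq2 called 1 member against 0, and in females with fracture the fit of only the compared groups called 1 against 0. The other counts were 0 under every setting run.

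Log2 differences of members kept their direction in 459 of 481 settings of this kind, and the 22 turned ones did not pass, apart from Jun with DESeq2. The 481 include the setting with no filter, which could not differ. In males with fracture, Jun turned to −0.35 with DESeq2 and −0.49 within V 99 to 110, and Dusp1 to −0.28 and −0.40. Within V 64 to 79, Jund turned to 0.11 and Atf3 to −0.11. Without fracture, Junb turned to −0.032 with library totals and −0.002386 with the replicate block. Between fracture and no fracture in male resident microglia, the replicate block gave 0.22 for Fos, 9.545e-05 for Jund and 0.53 for Egr1, and the V range as a term, added after seeing the data, gave 1.03, 0.053 and 0.76. Egr1 there was 0.007416 with DESeq2, 0.016 with library totals, 0.0004533 with a mean of at least 5 CPM and 0.003091 with only the compared groups, and Ier2 −0.10 within V 64 to 79. In male repopulated microglia DESeq2 gave Egr1 −0.44. In females with fracture, Atf3 was −0.0248 with library totals and Rhob 0.0247 with the replicate block.

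With single libraries left out, these differences changed sign. In females without fracture Dusp1 ranged from −3.92 to 2.41 and Rhob from −1.60 to 0.0698. In females with fracture Fos ranged from −0.72 to 0.66, Egr1 from −0.37 to 0.21, Atf3 from −0.0472 to 0.20 and Rhob from −0.39 to 0.58. Between fracture and no fracture, female resident Egr1 ranged from −0.29 to 0.54, and female repopulated Fos from −0.10 to 0.66 and Junb from −0.14 to 0.0291. In males without fracture Junb ranged from −0.00192 to 0.12 and Ier2 from −0.15 to 0.17. In males with fracture Jun ranged from −0.38 to 0.36 and Dusp1 from −0.31 to 2.07. Between fracture and no fracture, male resident Jun ranged from −0.0317 to 0.0923, Egr1 from −0.23 to 0.31, Atf3 from −0.0618 to 0.58 and Ier2 from −0.12 to 0.21, and male repopulated Egr1 from −0.39 to 1.55. The cause of these changes was not tested.

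Whether same sample numbers pair the libraries could not be decided. Correlations of same-numbered libraries were −0.312 to 0.211, and in no comparison were all above 0.1. Between female resident and repopulated libraries without fracture they were 0.211, 0.043 and 0.125. There resident libraries 1 and 3 were most alike to the same number, and resident library 2 to number 1. With the number as a replicate block the all-gene calls for repopulation went from 338 to 143 and from 315 to 184 in females, and from 890 to 761 and from 589 to 293 in males; in males they rose from 1 to 2 and from 1 to 56 for fracture in resident and repopulated microglia, and from 1 to 57 for the interaction. Scaling by library totals alone put the median of all genes at −0.11 in females and −0.12 in males without fracture. Fos and Dusp1 had low counts, and their standard errors were 1.04 to 1.22 and 1.31 to 1.51 in the female comparisons within a state; Egr1 and Rhob had 0.83 to 0.91 and 0.78 to 0.92, and how far counting set these errors was not tested.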
